A study of Mus musculus with 18 samples.

Results

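Genes of 10 enzymes that remove superoxide and peroxides were followed in the kidney RNA-seq data: the superoxide dismutases *Sod1*, *Sod2* and *Sod3*, the catalase gene *Cat*, the glutathione peroxidases *Gpx1*, *Gpx3*, *Gpx4* and *Gpx6*, and the peroxiredoxins *Prdx1* and *Prdx5*. They were taken by gene symbol, as 10 of the 49585 gene rows of the deposited table, and all 10 passed the filter on low values (a mean above 10 normalized reads) that left 16984 genes for testing. The study asked what overexpression (OE) of *Lin28A*, an RNA-binding protein of early development, does to the mouse kidney over time. Kidney libraries were sequenced in 6 groups of 3. *Lin28A* OE mice had the genotype Lox-stop-Lox-TetOn-Lin28A; Six2Cre and received doxycycline (Dox) at 1 g/L in drinking water for 1, 2 or 5 weeks. Control mice, called WT in the titles, carried Lox-stop-Lox-TetOn-Lin28A without Six2Cre and received the same Dox for the same times. Six2Cre acts in the nephron progenitors, so the transgene can be switched on in the nephron tubules and podocytes that derive from them and not in stroma, vessels or blood cells, although RNA was taken from kidneys that hold all of these. Ages and sexes were not given in the sources used here, nor was it stated whether each library came from a separate mouse, so the spread between libraries may be in part technical.

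Superoxide, which leaks from respiratory chains and is made on purpose by NADPH oxidases, is turned into hydrogen peroxide by superoxide dismutases. Catalase, glutathione peroxidases and peroxiredoxins then remove the peroxide in different compartments, the peroxidases with different electron donors. The proximal tubule of the kidney is densely packed with mitochondria and peroxisomes, and its cells are the main source of the glutathione peroxidase of blood plasma. NRF2, which binds antioxidant response elements, and NF-kB are known regulators of several of these genes.

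The compared libraries held between 21176911 and 26844887 counted reads in *Lin28A* OE kidneys and between 21376177 and 28686369 in control kidneys. *Lin28a*, the targeted gene, matched the labels in every library. In OE kidneys it had 41737, 68744 and 56496 normalized reads after 1 week, 116461, 71764 and 52622 after 2 and 615, 600.2 and 420.1 after 5, against 14 to 29 in the 9 control kidneys. At 5 weeks it was therefore far lower in OE kidneys than at the earlier times, yet still above every control. *Xist* exceeded 100 normalized reads in 4 OE and 2 control libraries and the Y-linked *Ddx3y* in the other 12, so both sexes were present in 5 of the 6 groups and only the controls of 1 week had none with *Xist* at that level.

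Promoters of the genes were read from RefSeq (GRCm38.p6) as 300 bases, from 250 before to 50 after a transcription start. Windows were matched for 9 of the 10 genes, all but *Sod3*. These 9 genes had 12 windows, as *Gpx4* had several. The core of the antioxidant response element, TGACNNNGC on either strand, was present in 2 of the 9 genes, *Prdx1* and *Sod1*. That is 2 of their 12 windows, against 12.4% of the 32851 windows of the whole table. The NF-kB motif was present on either strand in 5 of the 9, *Cat*, *Prdx1*, *Gpx1*, *Gpx3* and *Sod2*. That is 5 of the 12 windows, against 8.46% of all windows. In *Cat* and *Sod2* the same bases matched on both strands and were counted once. No match was found in the windows of *Gpx4*, *Gpx6* and *Prdx5*. G and C made up 47.0% of the matched window of *Gpx1*, 56.3% of *Gpx3*, 60.7% of *Prdx1*, 62.0% of *Cat*, 64.3% of *Sod2* and 66.7% of *Sod1*. The median over all windows was 52.7%, and the part of base composition in these counts was not tested. The windows given are those of the gene with the largest change (*Cat*), the mitochondrial dismutase *Sod2*, and both genes with an antioxidant response element core, with matches in capitals.
Cat, chr2:103485104-103485403, minus strand, NF-kB motif: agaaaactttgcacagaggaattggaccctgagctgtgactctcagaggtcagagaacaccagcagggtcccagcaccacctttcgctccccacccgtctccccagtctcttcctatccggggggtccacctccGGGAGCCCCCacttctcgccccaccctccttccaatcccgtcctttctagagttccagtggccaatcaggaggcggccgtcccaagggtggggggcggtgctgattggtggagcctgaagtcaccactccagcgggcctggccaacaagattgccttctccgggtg
Sod2, chr17:13007589-13007888, plus strand, NF-kB motif: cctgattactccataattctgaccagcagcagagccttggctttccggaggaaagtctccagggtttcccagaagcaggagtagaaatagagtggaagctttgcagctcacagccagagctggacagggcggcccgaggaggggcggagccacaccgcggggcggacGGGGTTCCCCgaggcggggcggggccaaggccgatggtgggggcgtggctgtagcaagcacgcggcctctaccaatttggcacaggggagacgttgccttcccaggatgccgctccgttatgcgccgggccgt
Sod1, chr16:90220512-90220811, plus strand, antioxidant response element core: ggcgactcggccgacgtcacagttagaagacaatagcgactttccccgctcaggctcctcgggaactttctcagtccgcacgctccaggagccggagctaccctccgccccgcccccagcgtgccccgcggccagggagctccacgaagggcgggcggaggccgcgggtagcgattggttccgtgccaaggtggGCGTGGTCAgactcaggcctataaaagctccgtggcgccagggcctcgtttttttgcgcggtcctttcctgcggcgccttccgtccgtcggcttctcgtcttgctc
Prdx1, chr4:116685349-116685648, plus strand, NF-kB motif and then antioxidant response element core: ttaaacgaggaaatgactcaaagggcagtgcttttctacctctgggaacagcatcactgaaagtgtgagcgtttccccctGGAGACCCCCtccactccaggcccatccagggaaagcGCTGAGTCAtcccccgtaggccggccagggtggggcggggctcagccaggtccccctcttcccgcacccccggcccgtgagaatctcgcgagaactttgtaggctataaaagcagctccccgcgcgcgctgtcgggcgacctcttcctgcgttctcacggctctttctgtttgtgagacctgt
The *Prdx1* core match begins at position -133 from the start and that of *Sod1* at -56, both read on the minus strand. The *Prdx1* match also contains, on that strand, the letters TGACTCA, to which AP-1 factors bind. Such matches describe the letters of these windows, and binding was not measured.

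More of these 10 genes were lower in *Lin28A* OE kidneys than of all genes, most at 2 weeks. They were chosen with earlier results of these data known, so their share need not hold for antioxidant enzymes at large. In the list of other peroxidases and peroxiredoxins, as many of 9 tested genes rose as fell at each time. The counts were 2, 3 and 1 each way at 1, 2 and 5 weeks. No member rose, although 18.7%, 28.9% and 7.67% of all tested genes did at 1, 2 and 5 weeks. By limma, 6 of 10 were lower at an adjusted p under 0.05 after 1 week of Dox, against 15.6% of all tested genes. After 2 weeks 10 of 10 were lower, against 28.8% of genes, although with quantile normalization 8 were, since *Gpx3* turned to 0.61 on the log2 scale (adjusted p = 0.0741) and the call of *Prdx1* was lost (-0.31, adjusted p = 0.137). After 5 weeks 4 of 10 were lower, against 7.9% of genes. The median log2 fold change of the 10 genes was -0.64, -1.57 and -0.27 at 1, 2 and 5 weeks, whereas that of all tested genes was -0.02, 0.01 and 0.02. All 3 OE libraries lay below all 3 controls for 7, 10 and 6 members at the 3 times, and for 24.1%, 29.9% and 17.8% of all genes. DEGs were also called at the study's thresholds, an adjusted p under 0.05 and a change of more than 1 on the log2 scale. The test was limma, where the study used DESeq2. This gave 3 members at 1 week, *Sod2*, *Sod3* and *Cat* (5.02% of genes were such lower DEGs). It gave 8 at 2 weeks, all but *Gpx4* and *Prdx1* (16.8% of genes), and 1 at 5 weeks, *Gpx6* (3.03% of genes). The library replicates are few, and an exact permutation test of 3 against 3 libraries cannot give a p below 0.1, so p-values here come from the limma fit over all genes.

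**Figure D1:**
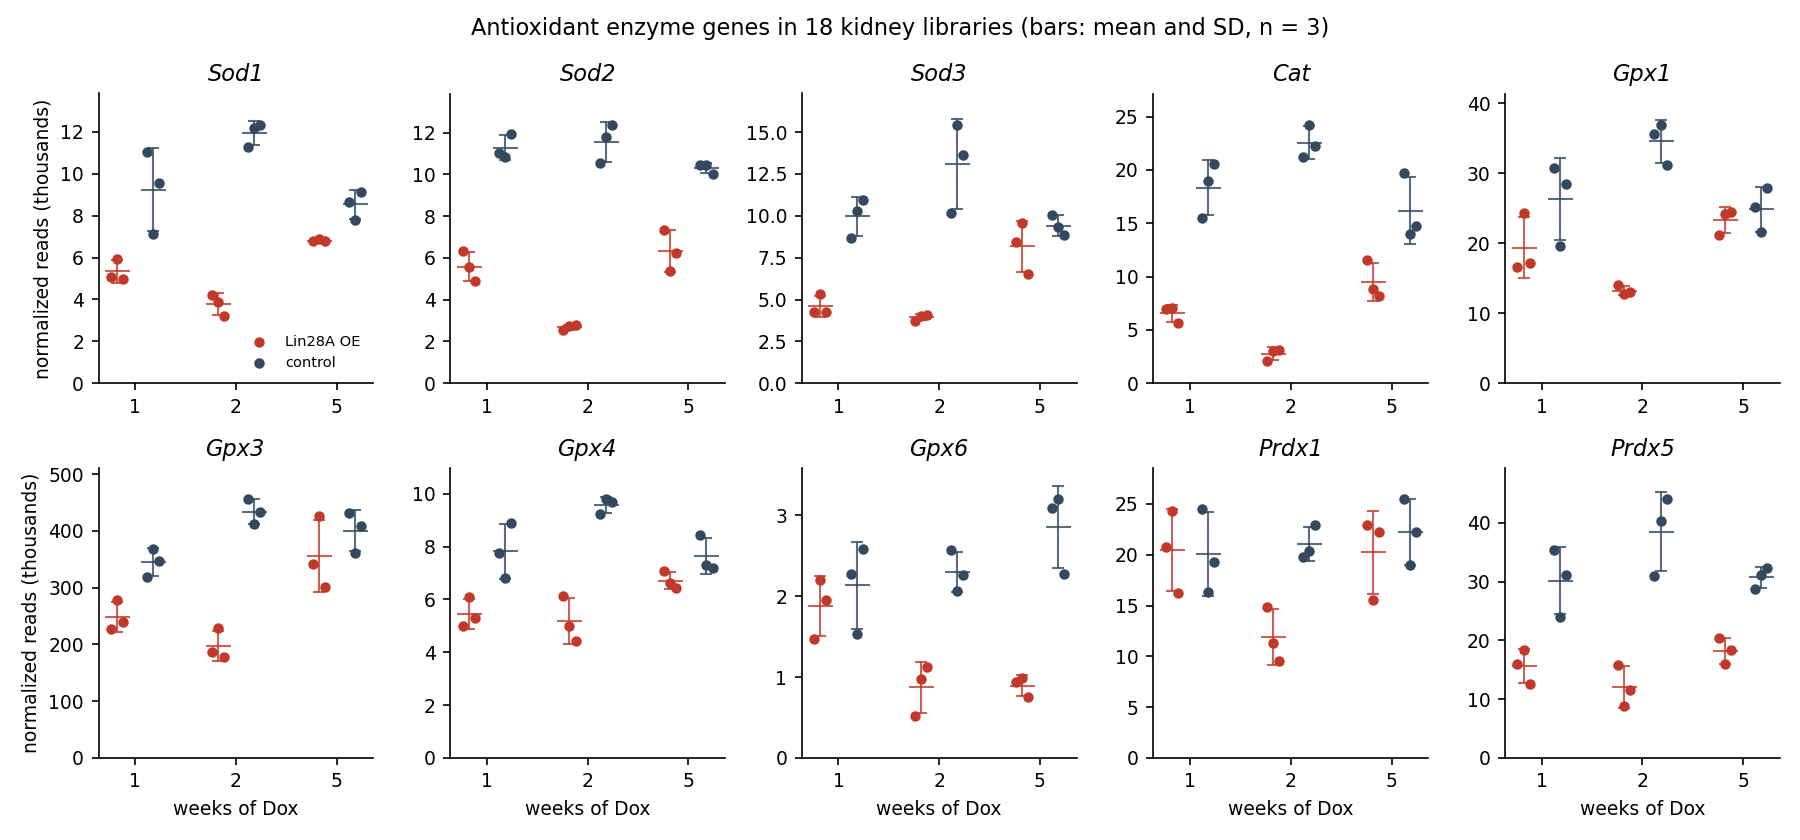
Normalized reads (vertical axis, in units of 1000 reads, from 0, a scale for each gene) of the 10 antioxidant enzyme genes by weeks of Dox (horizontal axis), with each *Lin28A* OE library in red at the left and each control library in dark blue at the right. Bars give the mean and SD of 3 libraries. At 2 weeks the red points of every gene lie below all blue points (for *Gpx3* with the deposited scaling). *Gpx6* at 5 weeks lies between 747 and 992 in OE and between 2277 and 3201 in control libraries.

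Among the superoxide dismutases, *Sod2*, the manganese enzyme of the mitochondrial matrix, had the lowest log2 fold change at 2 and 5 weeks, and *Sod3* at 1 week. *Sod2* (chr17:13006846-13040063, plus strand, GRCm38) had 6310.0, 5543 and 4897 normalized reads in OE kidneys at 1 week, against 11038, 10838 and 11951 in control kidneys. At 2 weeks the OE kidneys had 2543, 2735 and 2775, against 10522, 11769 and 12385 in controls. At 5 weeks they had 7358, 5366 and 6257, against 10462, 10461 and 10033 in controls. The groups were apart at every time, and the OE libraries of 2 weeks lay within a narrow range. The OE level was 49.5%, 23.2% and 61.3% of the control level, with log2 fold changes of -1.02 (SE 0.12, adjusted p = 1.14e-05), -2.10 (SE 0.12, adjusted p = 2.09e-09) and -0.72 (SE 0.12, adjusted p = 0.00107, limma).

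*Sod1* (chr16:90220754-90226329, plus strand) encodes the copper-zinc enzyme of the cytosol. It had 5056, 5954 and 4998 normalized reads in OE kidneys at 1 week, against 11061, 7103 and 9567 in controls, and 4218, 3885 and 3203 at 2 weeks, against 11274, 12187 and 12349 in controls. At 5 weeks the OE libraries had 6783, 6873 and 6771, against 8671, 7799 and 9149 in controls. The groups did not overlap at any time. *Sod1* had log2 fold changes of -0.77 after 1 week (SE 0.14, adjusted p = 6.16e-04) and -1.67 after 2 (SE 0.14, adjusted p = 7.21e-08). The difference at 5 weeks was -0.32 (95% interval -0.63 to -0.02) and did not pass after adjustment over all genes (adjusted p = 0.140, limma). The gene overlaps *Scaf4* on the opposite strand, and whether counting used strand was not given in the sources used here, so some reads could belong to either.

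*Sod3* (chr5:52363791-52371418, plus strand), the secreted copper-zinc enzyme of the extracellular matrix, fell at 1 and 2 weeks. Its OE libraries had 4258, 5332 and 4228 normalized reads at 1 week, against 8651, 10296 and 10940.0 in controls, and 3719, 4029.9 and 4071 at 2 weeks, against 10187, 15445 and 13625 in controls. At 5 weeks they had 8457, 9543 and 6501, against 10069, 9308 and 8852 in controls, and the groups overlapped there. The log2 fold changes were -1.11 (SE 0.16, adjusted p = 8.58e-05), -1.71 (SE 0.16, adjusted p = 2.13e-07) and -0.22 (95% interval -0.56 to 0.12, adjusted p = 0.390, limma).

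*Cat* (chr2:103453849-103485160, minus strand) encodes catalase, which splits hydrogen peroxide in peroxisomes without an electron donor. It fell more than any other member at 1 and 2 weeks. In OE kidneys it had 6965, 7088 and 5611 normalized reads at 1 week, against 15481, 18946 and 20554 in controls. After 2 weeks OE kidneys had 2060.4, 3063 and 3151, against 21216, 24262 and 22230.4 in controls. After 5 weeks they had 11564, 8851 and 8191, against 19759.6, 14022 and 14701 in controls. No OE library reached a control library of its week, and catalase RNA was at 35.8%, 12.2% and 59.0% of the control level at 1, 2 and 5 weeks. The log2 fold changes were -1.48 (SE 0.19, adjusted p = 2.15e-05), -3.06 (SE 0.19, adjusted p = 3.59e-09) and -0.76 (SE 0.19, adjusted p = 0.0114, limma). Of all tested genes, 2.43%, 2.28% and 7.38% had a lower log2 fold change than *Cat* at these times. The call at 5 weeks was lost without OE replicate 3 of that week (-0.66, adjusted p = 0.0630) and without control replicate 1 (-0.61, adjusted p = 0.0576).

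**Figure D2:**
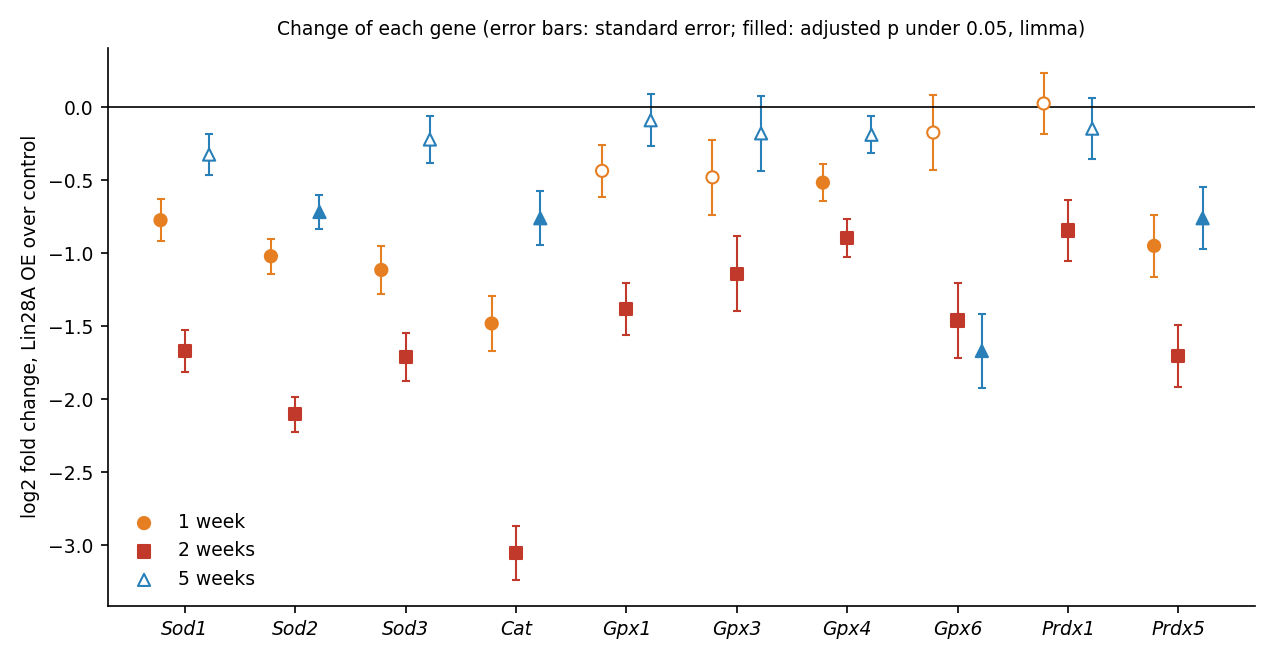
Log2 fold change of *Lin28A* OE over control kidneys (vertical axis) for each gene at 1 week (circles), 2 weeks (squares) and 5 weeks (triangles) of Dox. Bars are standard errors and filled symbols have an adjusted p under 0.05 by limma. *Cat* at 2 weeks is the lowest point at -3.06, and *Gpx6* is the one gene whose 5-week value (-1.67) lies below its 2-week value (-1.46). The *Gpx3* value at 2 weeks (-1.14) turns to 0.61 with quantile normalization.

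The glutathione peroxidases differed among themselves in size and in timing. *Gpx1* (chr9:108338903-108340343, plus strand), the common selenoenzyme of cytosol and mitochondria, had 13983, 12697 and 13026 normalized reads in OE kidneys at 2 weeks, against 35568, 36985 and 31184 in controls. Its log2 fold change there was -1.38 (SE 0.18, adjusted p = 5.50e-06, limma). At 1 week it had 16686, 24376 and 17150.0 in OE kidneys, against 30771, 19687 and 28460.4 in controls. One high OE library and one low control library overlapped at that time, and the difference of -0.44 did not pass the test (95% interval -0.81 to -0.06, adjusted p = 0.0689). Without OE replicate 2 the value was -0.61 (adjusted p = 0.0194), and without control replicate 2 it was -0.63 (adjusted p = 0.0125). DESeq2 and upper-quartile rescaling also called it lower, with adjusted p-values of 0.0375 and 0.0414, whereas quantile normalization gave 0.07. At 5 weeks *Gpx1* had 21241, 24215 and 24537 in OE kidneys, against 25135, 21581 and 27969 in controls, which overlapped (-0.09, 95% interval -0.46 to 0.29, adjusted p = 0.788).

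*Gpx3* (chr11:54902453-54910377, plus strand) encodes the secreted plasma peroxidase and was among the 6 most abundant transcripts of every library. It had 226254, 277301 and 240034 normalized reads in OE kidneys at 1 week, against 319449, 368195 and 347184 in controls. The 2-week OE libraries had 186907, 227919 and 178176, against 455840.5, 412745 and 432417 in controls. Those of 5 weeks had 341220.1, 425916 and 301601, against 431219, 360636 and 408279 in controls. The groups were apart at 1 and 2 weeks and overlapped at 5 weeks. *Gpx3* changed by -1.14 on the log2 scale after 2 weeks (SE 0.26, adjusted p = 0.00114, limma), but the sign turned to 0.61 under quantile normalization. That method replaces each value by the mean, over all libraries, of the values at its rank. *Gpx3* ranked 1 to 3 among all genes in OE libraries of 2 weeks and 4 to 6 in controls. The differences at 1 and 5 weeks were -0.48 (95% interval -1.02 to 0.06, adjusted p = 0.163) and -0.18 (95% interval -0.72 to 0.36, adjusted p = 0.690), and quantile normalization turned them to 0.13 and 0.23. At 1 week edgeR (adjusted p = 0.0472), DESeq2 (adjusted p = 0.00333) and limma with robust moderation (adjusted p = 0.0280) called it lower.

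*Gpx3* held most of the reads of these genes. All 10 members together took 1.40 ± 0.142% of counted reads in OE kidneys at 1 week, against 1.77 ± 0.0720% in controls (SD, n = 3 each). At 2 weeks they took 1.14 ± 0.0849% in OE kidneys and 2.08 ± 0.120% in controls, and at 5 weeks 1.91 ± 0.216% in OE kidneys and 2.01 ± 0.136% in controls. *Gpx3* alone took 0.885 ± 0.103% in OE kidneys and 1.51 ± 0.136% in controls at 2 weeks. The other 9 genes summed to 0.252 ± 0.0248% in OE kidneys and 0.571 ± 0.0201% in controls at that time. The sum of all 10 did not overlap between groups at 1 and 2 weeks and overlapped at 5 weeks, as that of *Gpx3* did. The sum of the other 9 was lower in every OE library at 5 weeks as well, with 0.389% to 0.441% in OE kidneys, against 0.473% to 0.517% in controls.

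**Figure D3:**
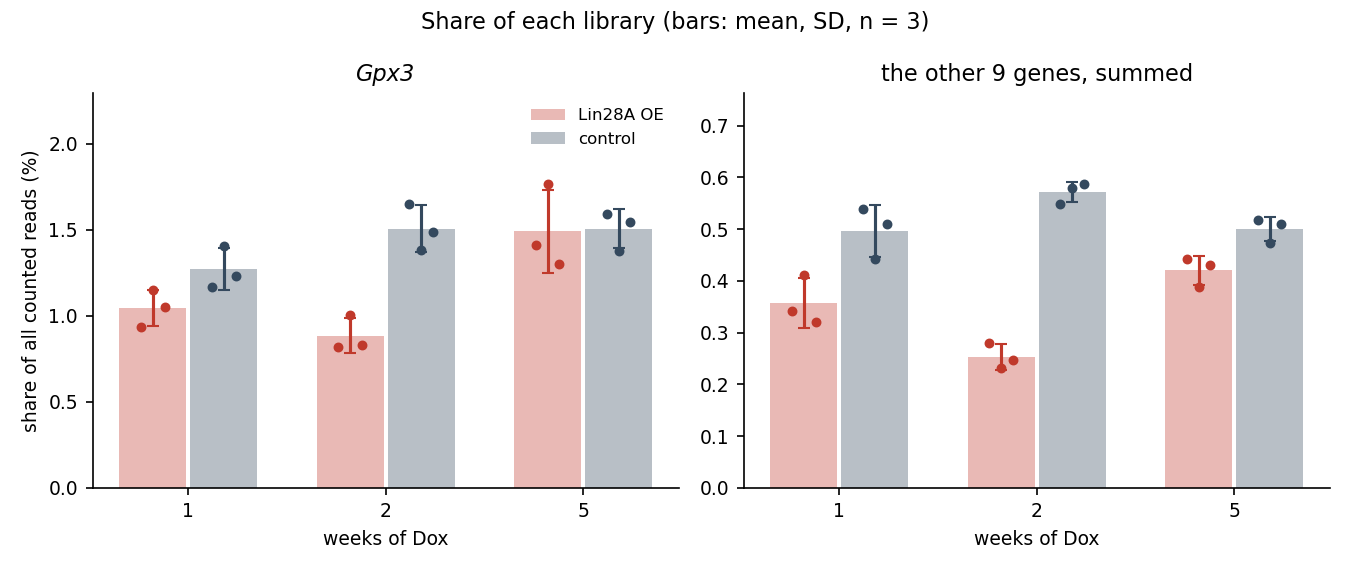
Share of all counted reads in percent (vertical axes, from 0, a scale for each panel) taken by *Gpx3* (left panel) and by the other 9 genes summed (right panel) at 1, 2 and 5 weeks of Dox. Bars are means with SD over 3 libraries, points are libraries, and *Lin28A* OE in red stands left of control in dark blue. At 2 weeks *Gpx3* takes 0.885% of OE libraries and 1.51% of control libraries.

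*Gpx4* (chr10:80047166-80056439, plus strand) encodes the peroxidase that reduces lipid hydroperoxides in membranes and guards cells against ferroptosis. OE kidneys had 4998, 6083 and 5295 normalized reads at 1 week, against 7757, 6824 and 8889 in controls, and 6150.1, 5013 and 4424 at 2 weeks, against 9239.5, 9802 and 9685 in controls. At 5 weeks they had 7073, 6609 and 6442, against 8449, 7318 and 7199.6 in controls. The groups did not overlap at any time, although the highest OE library and the lowest control nearly met at 5 weeks. *Gpx4* had log2 fold changes of -0.52 after 1 week (SE 0.13, adjusted p = 0.00537) and -0.89 after 2 (SE 0.13, adjusted p = 1.76e-05). The difference at 5 weeks was -0.19 (95% interval -0.46 to 0.08, adjusted p = 0.350, limma). *Gpx4* stood at 54.3% of control at 2 weeks, where *Cat* stood at 12.2%. The ratio of *Cat* to *Gpx4* reads within a library, which does not depend on scaling, averaged 0.553 ± 0.195 in OE kidneys and 2.36 ± 0.104 in controls at 2 weeks (SD, n = 3 each). Those ratios did not overlap (exact permutation test, two-sided p = 0.1, the smallest that 3 against 3 allow), and the pair was chosen after the values were seen.

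*Gpx6* (chr13:21312125-21319624, plus strand) encodes a peroxidase known mainly from the olfactory mucosa, which in rodents carries cysteine in place of selenocysteine. Its lowest log2 fold change was at 5 weeks, where that of each other member was at 2 weeks. In OE kidneys it had 1470.1, 2206 and 1949 normalized reads at 1 week, against 2281, 1538 and 2581 in controls. By 2 weeks OE kidneys had 521, 979 and 1126, against 2571, 2070.0 and 2257 in controls. By 5 weeks they had 944, 992 and 747, against 3097, 3201 and 2277 in controls. The groups overlapped at 1 week and were wide apart at 2 and 5 weeks, when OE kidneys were at 38.1% and 31.3% of control. The log2 fold changes were -0.17 (95% interval -0.71 to 0.37, adjusted p = 0.639), -1.46 (SE 0.26, adjusted p = 1.28e-04) and -1.67 (SE 0.26, adjusted p = 5.88e-04, limma). Of all tested genes 1.71% had a lower log2 fold change than *Gpx6* at 5 weeks, and 11.0% at 2 weeks. The within-library ratio of *Gpx6* to *Gpx3* reads at 5 weeks averaged 0.00252 ± 0.000222 in OE kidneys and 0.00721 ± 0.00165 in controls (SD, n = 3 each, no overlap, exact permutation p = 0.1). At 1 and 2 weeks this ratio overlapped between the groups, with log2 differences of 0.31 and -0.32 (exact permutation p = 0.5 at both times). This pair, too, was chosen after the values were seen.

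The peroxiredoxins use thioredoxin to reduce peroxides. *Prdx5* (chr19:6906697-6910106, minus strand), which is found in mitochondria, peroxisomes and cytosol, had 15951, 18364 and 12531 normalized reads in OE kidneys at 1 week, against 35345, 24050.2 and 31094 in controls. At 2 weeks the OE libraries had 15883, 8794 and 11474, against 31019, 40339 and 44031 in controls, and at 5 weeks 20350.5, 15924 and 18331, against 28717, 31106 and 32304 in controls. The groups were apart at every time. *Prdx5* had log2 fold changes of -0.95 (SE 0.21, adjusted p = 0.00260), -1.70 (SE 0.21, adjusted p = 4.09e-06) and -0.76 (SE 0.21, adjusted p = 0.0236, limma). The call at 1 week was lost with quantile normalization (-0.44, adjusted p = 0.0857). The call at 5 weeks was lost when OE replicate 2 (adjusted p = 0.0939), OE replicate 3 (0.0674), control replicate 2 (0.0683) or control replicate 3 (0.0802) of that week was left out, with log2 values between -0.77 and -0.67. The gene overlaps *Trmt112* on the opposite strand.

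*Prdx1* (chr4:116685544-116700822, plus strand), the abundant cytosolic peroxiredoxin and a known NRF2 target, had the smallest log2 fold changes at 1 and 2 weeks. It had 20768, 24298 and 16233 normalized reads in OE kidneys at 1 week, against 24531, 16381 and 19295 in controls, with full overlap. At 2 weeks the OE libraries had 14892, 11308 and 9488, against 19793, 20354 and 22955 in controls, with none. At 5 weeks they had 22911, 15547 and 22260.1, against 25478, 18973 and 22221 in controls, again overlapping. *Prdx1* fell by 0.84 in log2 terms at 2 weeks (SE 0.21, adjusted p = 0.00234, limma), a call that was lost with quantile normalization (-0.31, adjusted p = 0.137) and with the *Ddx3y* libraries alone (-0.54, adjusted p = 0.157), of which 1 OE library was of 2 weeks. At 1 week the difference was 0.03 (95% interval -0.41 to 0.47, adjusted p = 0.937), which became 0.53 with an adjusted p of 0.0257 under quantile normalization and -0.02 with upper-quartile rescaling. At 5 weeks it was -0.15 (95% interval -0.59 to 0.29, adjusted p = 0.687), and 0.13 under quantile normalization. The ratio of *Prdx1* to *Prdx5* reads within a library, a pair chosen after the values were seen, was 1.31 ± 0.0145 in OE kidneys and 0.665 ± 0.0393 in controls at 1 week (SD, n = 3 each, no overlap, exact permutation p = 0.1). It was 1.02 ± 0.240 in OE kidneys and 0.555 ± 0.0727 in controls at 2 weeks, without overlap as well.

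Whether the effect of OE changed with time was tested as an interaction in the same limma fit. Between 1 and 2 weeks the OE effect became lower in 5 of 10 members, against 6.8% of all genes: *Cat* by -1.57 on the log2 scale (SE 0.26, adjusted p = 0.00302), *Gpx6* by -1.29, *Sod2* by -1.08, *Gpx1* by -0.95 and *Sod1* by -0.90. Between 2 and 5 weeks it became higher, that is nearer to control, in 7 of 10, against 14.9% of all genes. *Cat* moved by 2.30 (SE 0.26, adjusted p = 2.13e-05), *Sod3* by 1.49, *Sod2* by 1.39, *Sod1* by 1.35, *Gpx1* by 1.29, *Prdx5* by 0.94 and *Gpx4* by 0.71. *Gpx3* moved by 0.96 and missed the threshold (adjusted p = 0.0564), but was called with a pseudocount of 0.5, no filter, a filter at 50, robust moderation, edgeR and DESeq2 (0.94 to 0.97, adjusted p = 1.78e-05 to 0.0472), and quantile normalization turned it to -0.38. *Gpx6* moved by -0.21 over this interval (95% interval -0.98 to 0.56, adjusted p = 0.706). Some calls were gained between 1 and 2 weeks. DESeq2 called *Gpx3* (-0.65, adjusted p = 0.0144) and *Prdx1* (-0.84, adjusted p = 0.0380) lower, and quantile normalization called *Prdx1* (-0.84, adjusted p = 0.0401). Leaving out single libraries also gained calls there for *Prdx1*, *Prdx5* and *Sod3*, and between 2 and 5 weeks for *Prdx1*. Between 1 and 5 weeks the effect differed in 2 of 10, against 6.99% of genes in either direction: it was higher at 5 weeks for *Sod3* by 0.89 (SE 0.23, adjusted p = 0.0277) and lower for *Gpx6* by -1.50 (SE 0.36, adjusted p = 0.0202). The call for *Gpx6* between 1 and 5 weeks was lost without OE replicate 2 of 1 week (-1.37, adjusted p = 0.0557), control replicate 2 of 1 week (-1.28, 0.0577), OE replicate 3 of 5 weeks (-1.37, 0.0514) or control replicate 2 of 5 weeks (-1.41, 0.0570). Single libraries decided other calls of this kind. That of *Gpx6* between 1 and 2 weeks was lost (-1.36 to -0.95, adjusted p = 0.0527 to 0.0914) without OE replicate 2 or 3 or control replicate 1 or 2 of 1 week, or without OE replicate 1 or any control of 2 weeks. That of *Gpx1* over the same interval was lost (-0.92 to -0.75, adjusted p = 0.0588 to 0.0708) without replicate 2 of either group at either time. That of *Sod3* between 1 and 5 weeks was lost (0.77 to 0.89, adjusted p = 0.0599 to 0.0716) without OE replicate 1 or 3 or control replicate 2 or 3 of 1 week, or OE replicate 2 or control replicate 2 or 3 of 5 weeks. That of *Prdx5* between 2 and 5 weeks was lost (0.73 to 0.90, adjusted p = 0.0563 to 0.0735) without OE replicate 2 or control replicate 2 or 3 of 2 weeks, or replicate 1 of either group of 5 weeks. Other settings also ended calls. That of *Prdx5* was lost with quantile normalization (0.66, adjusted p = 0.0804), that of *Gpx6* between 1 and 2 weeks without a filter (adjusted p = 0.0544) or with the compared groups alone (0.0586), and that of *Gpx1* with the compared groups alone (0.0515). With the *Ddx3y* libraries alone, the calls of *Sod1* and *Gpx1* between 1 and 2 weeks, *Sod3* between 1 and 5 weeks and *Gpx4* and *Prdx5* between 2 and 5 weeks were lost (adjusted p = 0.117 to 0.189). In control kidneys alone no member differed between weeks by limma, edgeR or DESeq2 at an adjusted p under 0.05, and limma called 0.0177%, 0.0% and 0.0883% of all genes between 1 and 2, 1 and 5, and 2 and 5 weeks. At an unadjusted p under 0.05, 4 did between 1 and 2 weeks, 0 between 1 and 5 weeks and 5 between 2 and 5 weeks. The 4, *Sod1*, *Sod3*, *Gpx1* and *Gpx4*, were higher in controls at 2 weeks than at 1, by 0.30 to 0.42 on the log2 scale. The 5, these and *Cat*, were lower in controls at 5 weeks than at 2 (-0.50 to -0.33). The interaction takes in such shifts of the control level.

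**Figure D4:**
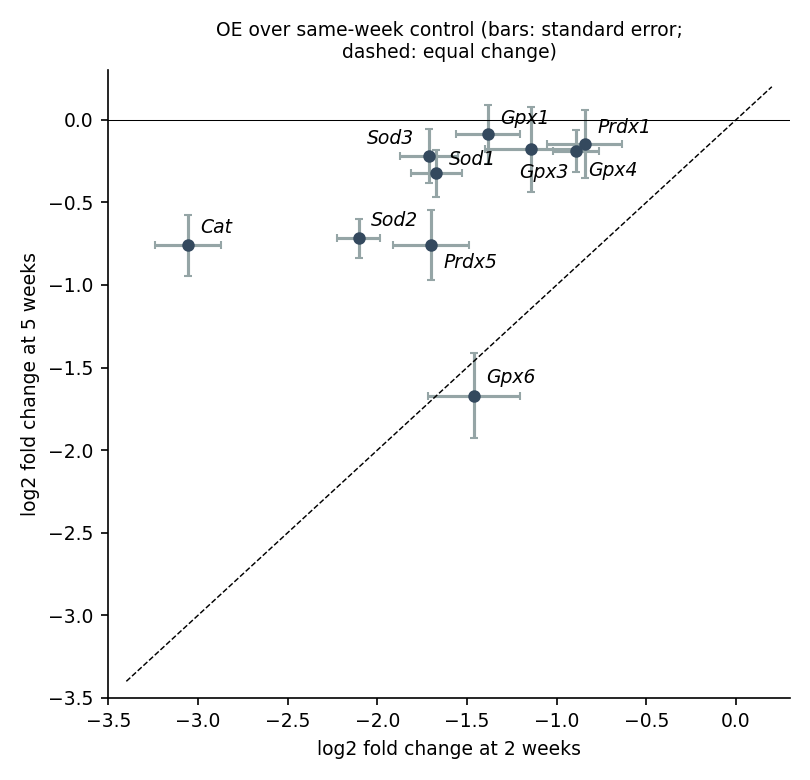
Log2 fold change of *Lin28A* OE over control at 2 weeks (horizontal axis) against that at 5 weeks (vertical axis) for each of the 10 genes, with standard errors as bars and equal change as a dashed line. The other 9 genes lie above the line, while *Gpx6* at -1.46 and -1.67 lies on it within its errors. With quantile normalization the *Gpx3* values would be 0.61 and 0.23.

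Levels of different genes were compared per kilobase of exon in the 9 control kidneys. *Gpx3* stood first, with a lowest, median and highest value of 176199, 225195 and 251429 normalized reads per kilobase. *Gpx1* followed with 13662, 19750.4 and 25666, and *Prdx5* with 11244, 14542 and 20585, and these 2 overlapped. *Cat*, *Prdx1* and *Gpx4* had medians of 7562, 6689 and 4901, and their ranges overlapped. *Sod3*, *Sod1* and *Gpx6* had medians of 2725, 2409.8 and 1667, and *Sod2*, with annotated exons of 10008 bases, was last with 1083. The ranges of *Sod3*, *Sod1* and *Gpx6* overlapped, as did those of *Gpx4* and *Sod3* and those of *Gpx6* and *Sod2*. The order below *Gpx3* depends on the length used. Per kilobase of coding sequence *Gpx3* was followed by *Prdx5* (median 48678), *Gpx1* (47198), *Prdx1* (34094), *Sod1* (20708), *Sod2* (16273), *Sod3* (13529), *Cat* (12498), *Gpx4* (11132) and *Gpx6* (3440.2). Ranges overlapped among *Prdx5*, *Gpx1* and *Prdx1*, among *Sod1*, *Sod2* and *Sod3*, and among *Sod3*, *Cat* and *Gpx4*. Those of *Sod2* and *Cat* overlapped as well. The order of genes with overlapping ranges was therefore not resolved.

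Over the 18 libraries, which share their group structure, the genes with the pattern most like each member were named by Pearson's r of log2 values. *Sod2* was closest to *Atp5b* (r = 0.995), *Ndufs1* (0.994) and *Apeh* (0.994), the first a subunit of ATP synthase and the second of respiratory complex I. Among the genes closest to *Cat* were *Vdac1* (0.993) and *Hadh* (0.992), of which *Hadh* acts in fatty acid oxidation. *Prdx5* was closest to *Txn2* (0.974), mitochondrial thioredoxin, and *Gpx1* to *Sod1* (0.957). *Sod3* was closest to *Echdc2* (0.987), *Sod1* to *Ccdc107* (0.974), *Gpx4* to *Mrpl2* (0.965) after an unnamed locus, and *Gpx3* to *Kxd1* (0.954). *Gpx6* and *Prdx1* had less close neighbours, led by *Hs3st3a1* (0.936) and *Mkks* (0.909). Among the members themselves r was lowest between *Gpx6* and *Prdx1* (0.477) and highest between *Cat* and *Sod2* (0.981).

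Genes that work with these enzymes were read from 10 lists chosen by function. Their counts stand beside those of all tested genes, of which 18.7%, 28.9% and 7.67% rose at the 3 times while 15.6%, 28.8% and 7.9% fell. In the list of other peroxidases and peroxiredoxins, 2 of 9 tested genes rose and 2 fell at 1 week, 3 rose and 3 fell at 2 weeks, and 1 rose and 1 fell at 5 weeks. *Srxn1*, sulfiredoxin, which repairs overoxidized peroxiredoxins, rose by 1.45, 1.22 and 0.62 on the log2 scale (adjusted p = 2.71e-05, 3.24e-05 and 0.0344, limma). *Sesn2*, a stress-induced sestrin, rose by 1.22 and 1.68 at 1 and 2 weeks, while mitochondrial *Prdx3* fell at the 3 times (-0.47, -1.32 and -0.44). In the thioredoxin system 1 of 10 rose and 3 fell at 1 week, 2 rose and 4 fell at 2 weeks, and 0 rose and 1 fell at 5 weeks. The mitochondrial reductase *Txnrd2* fell early (-0.80 and -1.53 at 1 and 2 weeks), whereas the cytosolic reductase *Txnrd1* rose by 0.52 and 0.55.

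More of the glutathione genes fell than rose at 1 and 2 weeks, where 18.7% and 28.9% of all tested genes rose and 15.6% and 28.8% fell. At 5 weeks 7.67% of all tested genes rose and 7.9% fell. Median log2 fold changes at the 3 times were -0.48, -1.02 and -0.24 for synthesis and recycling and -0.37, -0.43 and 0.07 for S-transferases. Those of all tested genes were -0.02, 0.01 and 0.02. Of 17 genes for glutathione synthesis and recycling, 3 rose and 7 fell at 1 week, 5 rose and 11 fell at 2 weeks, and 2 rose and 5 fell at 5 weeks. *Slc7a11*, the cystine importer, rose by 4.25 and 5.26 on the log2 scale at 1 and 2 weeks (adjusted p = 2.62e-06 and 4.10e-08, limma), and *Chac1*, which degrades glutathione, rose by 4.16 and 4.54. *Ggt1*, the brush border enzyme that cleaves extracellular glutathione, fell (-1.49 and -3.45), and *Nnt*, which makes NADPH in mitochondria, was still lower at 5 weeks (-0.97, adjusted p = 0.00392). Of 21 glutathione S-transferases 2 rose and 8 fell at 1 week, 3 rose and 11 fell at 2 weeks, and 2 rose and 2 fell at 5 weeks. *Gstk1* of mitochondria and peroxisomes fell (-1.49, -2.67 and -0.83), while *Gstp2* rose by 3.24 and 3.48 at 1 and 2 weeks. *Gstp2* has a near-identical copy, *Gstp1*, so its value is uncertain.

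In the list of NRF2 regulators and marker targets more genes rose than fell at each time. Of 13 genes 6 rose and 0 fell at 1 week, where 18.7% of all genes rose. At 2 weeks 8 rose and 2 fell, where 28.9% of all genes rose, and at 5 weeks 4 rose and 0 fell, where 7.67% of all genes rose. *Hmox1*, heme oxygenase, rose by 2.63, 3.18 and 2.30 on the log2 scale (adjusted p = 0.00307, 2.68e-04 and 0.0172, limma), and the small MAF gene *Maff* by 2.28, 3.11 and 1.90. *Gclm*, a subunit of the glutathione-making ligase, fell by 1.02 at 2 weeks, and *Nqo1*, a quinone reductase, was lower at 2 weeks (-0.79) and rose by 0.70 at 5 weeks. *Slc7a11*, *Gclm*, *Srxn1* and *Txnrd1* stand in more than one list.

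In the list of superoxide and peroxide sources as many genes rose as fell at 1 and 2 weeks, both more often than among all tested genes. Among all tested genes 18.7%, 28.9% and 7.67% rose at 1, 2 and 5 weeks, and 15.6%, 28.8% and 7.9% fell. Of 18 tested genes 7 rose and 7 fell at 1 week, 8 rose and 8 fell at 2 weeks, and 5 rose and 3 fell at 5 weeks. *Ncf1* and *Ncf4*, subunits of the phagocyte NADPH oxidase, rose by 2.33, 3.92 and 2.09 and by 2.87, 3.41 and 1.74 on the log2 scale. The peroxide-forming peroxisomal oxidases *Hao2* and *Acox2* had log2 fold changes of -3.99 and -3.68 at 2 weeks (adjusted p = 1.69e-07 and 1.03e-07, limma), and *Nox4*, the main NADPH oxidase of tubules, fell by 1.23 at 5 weeks (adjusted p = 0.0201). Macrophage markers rose beside these genes, in 17, 18 and 16 of 18 at the 3 times, with summed levels of 16819.8 to 61609.8 normalized reads in OE kidneys and 5056 to 8642 in controls.

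In the list for peroxisome assembly more genes fell than rose at each time, and in that for selenium at 1 and 2 weeks. In peroxisome assembly, 1 of 21 rose and 15 fell at 1 week, 1 rose and 16 fell at 2 weeks, and 0 rose and 3 fell at 5 weeks, against 15.6%, 28.8% and 7.9% of all genes that fell. The membrane proteins *Pxmp2* and *Abcd3* fell at 2 weeks (-2.01 and -1.73 on the log2 scale). For selenium, needed by *Gpx1*, *Gpx3* and *Gpx4*, 1 of 20 rose and 9 fell at 1 week, and 1 rose and 10 fell at 2 weeks. At 5 weeks 0 rose and 1 fell, *Lrp2*, where 7.9% of all genes fell, so the list as a whole was not lower at that time. *Lrp2* (megalin), which takes up selenoprotein P in proximal tubules and is also a marker of them, had log2 fold changes of -1.79, -4.56 and -1.35 (adjusted p = 6.15e-04, 1.54e-08 and 0.0119, limma), and *Selenop* itself fell by 1.98 at 2 weeks. For copper, 2 of 9 rose and 3 fell at 1 week, and 3 rose and 5 fell at 2 weeks. At 5 weeks 2 rose and 1 fell. Among all tested genes 18.7%, 28.9% and 7.67% rose at these times. The copper counts that rose at 1 and 2 weeks and fell at 5 weeks were near the shares of all genes. *Ccs*, the chaperone that loads copper into *Sod1*, fell (-0.81, -1.37 and -0.45), while the metallothionein *Mt2* rose by 1.94, 2.94 and 2.01. In the repair list 1 of 11 rose and 6 fell at 1 week, 1 rose and 7 fell at 2 weeks, and 0 rose and 3 fell at 5 weeks, led by the methionine sulfoxide reductase *Msra* with log2 fold changes of -1.44, -2.62 and -0.67.

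**Figure D5:**
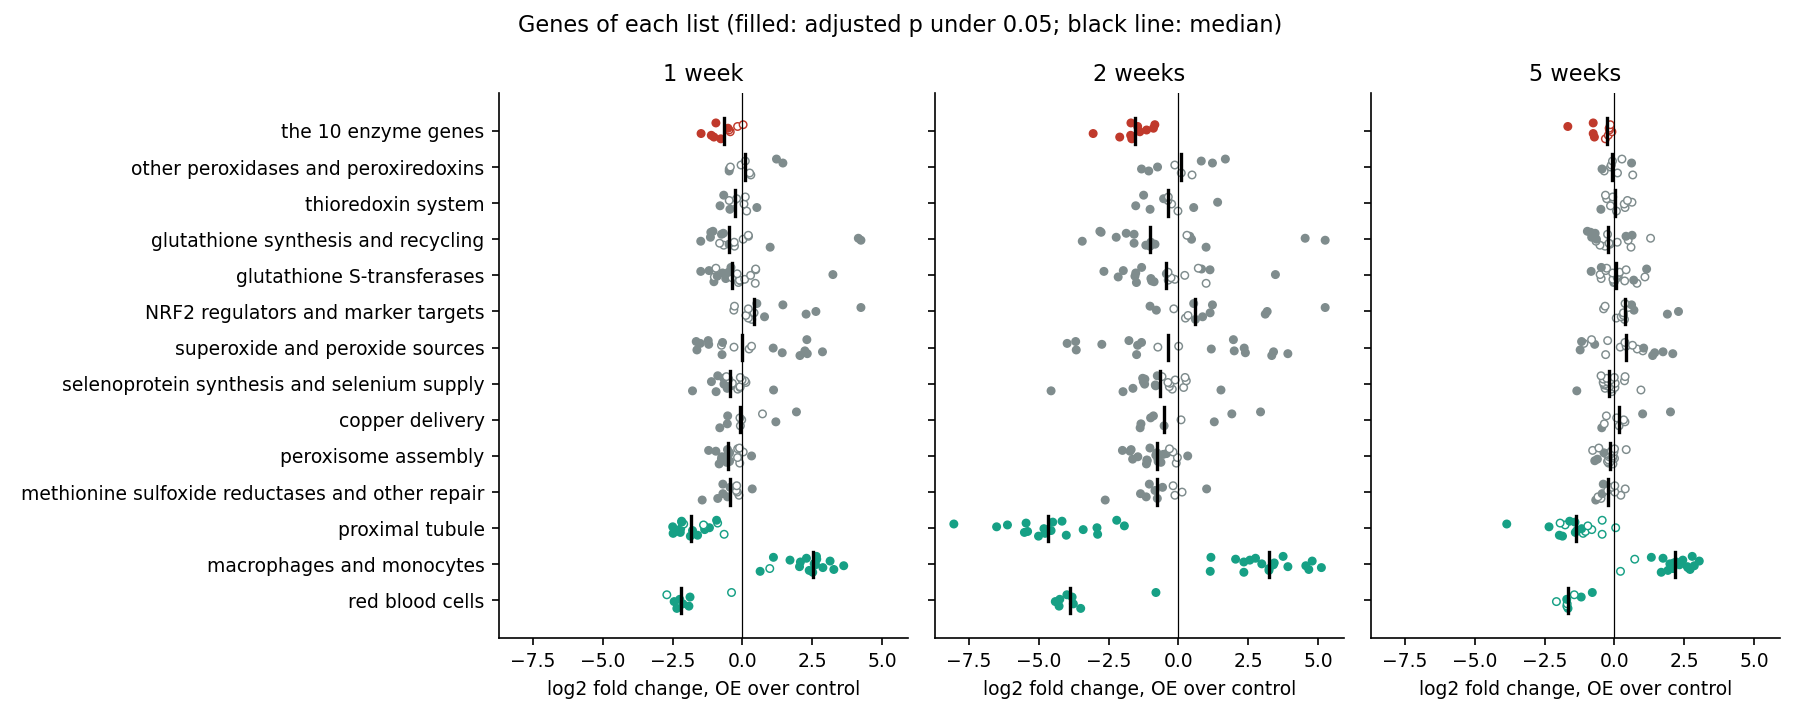
Log2 fold change of *Lin28A* OE over control (horizontal axes, one scale) for each tested gene of the 10 enzymes (red), of 10 functional lists (grey) and of 3 marker lists (green), at 1, 2 and 5 weeks of Dox. Filled points have an adjusted p under 0.05 by limma and black lines are medians. The median of the 10 enzymes at 2 weeks is -1.57, that of the proximal tubule markers -4.67 and that of the macrophage markers 3.25; the *Gpx3* point turns positive with quantile normalization.

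Markers of several cell types and mitochondrial reads also differed between OE and control kidneys. In whole kidneys fewer cells of a type and less RNA per cell cannot be told apart. Of all tested genes 18.7%, 28.9% and 7.67% rose and 15.6%, 28.8% and 7.9% fell at 1, 2 and 5 weeks. Of 18 proximal tubule markers 13, 18 and 9 fell at 1, 2 and 5 weeks, with median log2 fold changes of -1.83, -4.67 and -1.37. Their summed level ranged from 153156 to 340685 in OE kidneys at 1 week, against 710353 to 812241 in controls. It ranged from 23900 to 67533 in OE kidneys at 2 weeks, against 605192 to 1124584 in controls, and from 190012 to 468943 in OE kidneys at 5 weeks, against 615221 to 688831 in controls. No marker of that list was at 0, and the lowest group mean was 17.3 for *Slc7a13* in OE kidneys at 2 weeks. Red blood cell markers, of which 6, 8 and 4 of 8 fell, summed to between 4364 and 73678 normalized reads in OE kidneys and between 58299.7 and 218248 in controls. Tubular injury markers rose in 11, 12 and 12 of 12 and neutrophil markers in 6, 6 and 3 of 6 tested. Markers fell in 1, 6 and 5 of 7 for the thick ascending limb, 5, 5 and 4 of 5 for the distal convoluted tubule, 5, 5 and 2 of 7 for intercalated cells, 0, 5 and 4 of 7 for podocytes and 6, 7 and 6 of 7 for endothelium. T cell markers rose in 5, 3 and 0 of 9 tested, with median log2 fold changes of 1.34, 0.36 and 0.42, and stroma markers in 1, 1 and 3 of 8, with medians of 0.30, 0.09 and 1.05. Among these, the counts of T cells at 2 weeks, stroma at 1 and 2 weeks and the thick ascending limb at 1 week were near or below the shares of all genes. Between 0 and 2 markers were called at a time for principal cells and B cells. Not every list followed the course of the enzymes: median log2 fold changes were -0.40, 0.01 and 0.67 for principal cells and 0.12, -0.89 and -1.28 for podocytes. Mitochondrially encoded reads took 6.13 ± 0.911%, 3.09 ± 0.974% and 6.78 ± 1.25% of OE libraries at the 3 times, against 9.25 ± 0.300%, 11.4 ± 1.25% and 8.53 ± 0.414% of control libraries (SD, n = 3 each). The part of these changes in the members' results was not tested.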

How the data were processed

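Kidney RNA of 18 mouse libraries was poly(A)-selected and sequenced. The authors mapped reads to mm10 with STAR, counted them with HTSeq and divided the counts by DESeq2 size factors; the deposited signal values are these normalized reads, and tool versions were not given in the sources used here. Whole reads were recovered for 100.0% of values within a tolerance of 0.001. Of the gene identifiers, 99.5% matched the GRCm38 annotation used for coordinates and lengths.

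Genes with a mean above 10 were tested on log2(value + 1), a scale that understates changes of low genes, with limma 3.58.1 (R 4.3.3, intensity trend, 1 fit of 18 libraries, Benjamini-Hochberg adjustment over all 16984 genes). Groups followed the labels. Members and lists were chosen with earlier results of these data known. All 10 members were named, and from each functional list and week up to 3 called genes with the largest change and up to 2 that went against the list. *Prdx3* at 1 week, *Slc7a13* and the read ratios were chosen after their values were seen. There were 10 functional lists (156 genes) and 14 marker lists (133 genes). Pearson's r named the 3 most similar genes per member. Some genes that these rules name are not reported here.

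Alternatives were pseudocounts of 0.5 and 5, no filter, a filter at 50, upper-quartile rescaling, quantile normalization, count models on the recovered reads (edgeR 4.0.16 with TMM and DESeq2 1.42.0), the compared groups alone, robust moderation, the replicate number as a block, *Xist* as a covariate, only libraries with *Ddx3y* above 100, and leaving out each of 18 libraries. The fit was tested on simulated data. Figures used matplotlib 3.10.9 in Python 3.11.15.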

Additional observations from a re-analysis of the deposited data

Results flagged for a closer look

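Results are given here because the OE effect differed between weeks by the interaction test of limma (adjusted p under 0.05 over all genes). At 2 weeks against 1 week the log2 effect was lower by -0.90 for *Sod1* (adjusted p = 0.0124), -1.08 for *Sod2* (0.00242), -1.57 for *Cat* (0.00302), -0.95 for *Gpx1* (0.0273) and -1.29 for *Gpx6* (0.0361). At 5 weeks against 1 week it was 0.89 higher for *Sod3* (0.0277) and lower by -1.50 for *Gpx6* (0.0202). At 5 weeks against 2 weeks it was higher by 1.35 for *Sod1* (1.74e-04), 1.39 for *Sod2* (3.36e-05), 1.49 for *Sod3* (2.01e-04), 2.30 for *Cat* (2.13e-05), 1.29 for *Gpx1* (0.00118), 0.71 for *Gpx4* (0.00814) and 0.94 for *Prdx5* (0.0269). *Gpx3* missed the threshold between 2 and 5 weeks (0.96, adjusted p = 0.0564), which 6 of the alternatives passed (adjusted p = 1.78e-05 to 0.0472), and *Prdx1* missed it as well (0.70, adjusted p = 0.0862). Groups of 3 libraries were too small for a test of single libraries that stand apart.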

How the results depend on the processing

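Of 31 alternatives, every one kept the calls of *Sod1*, *Sod2*, *Sod3*, *Cat* and *Gpx4* at 1 and 2 weeks, of *Gpx1*, *Gpx6* and *Prdx5* at 2 weeks, and of *Sod2* and *Gpx6* at 5 weeks. Quantile normalization gave 1 member higher at 1 week (*Prdx1*) and 2 lower at 5 weeks, and turned *Gpx1* to 0.073 and 0.21 at 1 and 5 weeks, *Gpx3* to 0.13, 0.61 and 0.23 at the 3 times, *Prdx1* to 0.13 at 5 weeks, the effect difference of *Gpx3* to 0.47 (2 against 1 weeks) and -0.38 (5 against 2), and that of *Prdx5* to -0.015 (5 against 1). Upper-quartile rescaling gave -0.016 for *Prdx1* at 1 week. Using only libraries with *Ddx3y* above 100 left 2 members lower and 1083 genes called at 5 weeks, against 2643 with all libraries, and 3 and 1 members whose effect differed (2 against 1 and 5 against 1 weeks), with *Prdx1* at 0.039 (5 weeks) and 0.034 (difference, 5 against 1) and *Gpx6* at 0.15 (difference, 5 against 2); it leaves 1 OE library of 2 weeks, which is assumed to vary like the other groups. The compared groups alone gave 1651 genes at 5 weeks and 3 members for 2 against 1 weeks. The cause of the other changes was not tested.

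Leaving out 1 library gave between 2 and 4 members lower at 5 weeks (2 without OE replicate 3 of that week) and between 1304 and 3521 genes called. Members whose effect differed numbered between 3 and 6 for 2 against 1 weeks and between 0 and 2 for 5 against 1 weeks (0 without control replicate 2 of either week). *Prdx1* ranged from -0.11 to 0.18 at 1 week and from -0.25 to 0.034 at 5 weeks, its difference (5 against 1) from -0.33 to 0.0071, and the *Gpx6* difference (5 against 2) from -0.55 to 0.010. *Cat* and *Prdx5* at 5 weeks were also not called with quantile normalization (adjusted p = 0.0563 and 0.122) or with the *Ddx3y* libraries alone (0.0709 and 0.118).

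Replicate numbers did not pair the libraries: same-numbered deviations correlated between -0.19 and 0.21, above 0.1 in 2 of 9 pairs. A replicate block left 6, 10 and 4 members lower at the 3 times and called 6238, 10109 and 2984 genes. Counting error is small at these read numbers, and the 3 libraries per group limit precision.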
